A study of Metroxylon sagu with 6 samples.

Results

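Glutathione S-transferases (GSTs) were followed in leaf tissue of the sago palm, *Metroxylon sagu*. The members were the Unigenes whose best SwissProt match is a glutathione S-transferase and whose best Nr match is a protein of the oil palm *Elaeis guineensis* or the date palm *Phoenix dactylifera*. Unigenes are the transcripts of the de novo assembly, which used no genome. Of the 99933 Unigenes listed in at least 1 library, 44 met this rule. The best Nr match was in oil palm for 21 of them and in date palm for 23.

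The study compared non-trunking palms (SN7, SN8 and SN9), which had formed no trunk and were the target of interest, with trunking palms (ST1, ST4 and ST5), which were the control. All 6 palms were growing in a plantation on peat soil, no treatment is named, and 1 leaf library was made from each palm, so that each group holds 3 biological replicates. Palm age, leaf age and hour of collection are not in the labels. Each phenotype was collected at a place of its own, so phenotype and place cannot be told apart. The study's own listing of the deposited libraries calls palms 7, 8 and 9 trunking. Its list of sample positions and the sample labels both call them non-trunking, and the labels were used here.

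GSTs join the tripeptide glutathione to reactive, electrophilic compounds, and the conjugates are carried into the vacuole by ABC transporters of the C family and then taken apart. Plants hold several classes. Tau and phi are the large plant classes, known for the detoxification of herbicides and the handling of stress products and flavonoids. Zeta enzymes act in the breakdown of tyrosine, dehydroascorbate reductases (DHAR) return oxidised ascorbate to ascorbate, theta enzymes reduce organic hydroperoxides, and lambda enzymes carry out thiol transfer in place of conjugation.

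By the family letter of the SwissProt name, 26 members belonged to tau, 10 to phi, 3 to zeta, 3 to DHAR, 1 to theta and 1 to the TCHQD class, which is named for its likeness to a bacterial tetrachlorohydroquinone dehalogenase. The 26 tau members include 6 matched to maize GST23 and 2 matched to tobacco and soybean proteins whose SwissProt names carry no family letter. These 8 were placed in tau from textbook knowledge and from the Nr names, which include parA and U8-like. No member was of class lambda, because SwissProt calls the lambda-type proteins IN2-1 homologs and the rule does not reach that name. These are described apart, near the end.

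The members were between 248 and 4582 nt long with a median of 1203 nt. They included 26 contigs from 12 TGICL clusters and 18 single Unigenes. RSEM divides reads between near-identical contigs, so the values of contigs within a cluster are not independent and are uncertain to that extent. A contig of CL1728 and one of CL10476 have an Nr name of another protein, a beta-galactosidase and a cell surface glycoprotein, and 6 members were over 2000 nt. In such contigs a GST may be only a portion of the sequence. A total of 42 members were listed in all 6 libraries. The identifiers carry the suffix _All in the deposited tables, which is left off here.

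The libraries held between 17973801 and 18323939 expected counts in non-trunking palms and between 17927176 and 18492907 in trunking palms, and no pair of libraries was a copy, with a chi-square of at least 34.4 times its degrees of freedom. Levels are the deposited FPKM (fragments per kilobase of Unigene, scaled by the library total) divided by the TMM factor of the library, which was between 0.824 in SN7 and 1.13 in SN9. SN7 is thus the library whose levels move most with the scaling. Leaf markers were abundant, as 43 Unigenes of photosynthetic proteins summed to between 18231 and 41428 in non-trunking and between 15127 and 26179 in trunking palms. Markers of other cells were present in every palm. The 19 Unigenes of xylem and secondary wall summed to between 32.8 and 55.8 against between 26.2 and 31.6, the 15 of senescing leaf to between 55.6 and 245 against between 32.9 and 79.8, and the 27 of epidermis to between 941 and 1994 against between 1471 and 2227. Only the xylem sums did not overlap between the groups. The filter on low counts, given with the test below, removed 2 of the 43 photosynthetic Unigenes and 9 of the 19 of xylem. It also removed 8 of the 15 of senescing leaf and 3 of the 27 of epidermis. In bulk leaf, fewer cells of a type and less RNA per cell cannot be told apart.

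The GST family as a whole stood higher in the non-trunking palms. The summed level of the 44 members was 4654, 4758 and 4751 in SN7, SN8 and SN9, against 3304, 3336 and 3032 in ST1, ST4 and ST5. The groups did not overlap, with means of 4721 ± 57.9 and 3224 ± 167 (SD, n = 3 each) and a log2 ratio of 0.55. In deposited FPKM without the TMM factor the sums were 3835, 4798 and 5363 in non-trunking palms and 3205, 3696 and 3008 in trunking palms, again without overlap, although the gap between SN7 and ST4 was then small. GSTs made up between 0.583% and 0.815% of the summed level of all Unigenes in non-trunking palms and between 0.475% and 0.560% in trunking palms.

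**Figure D1:**
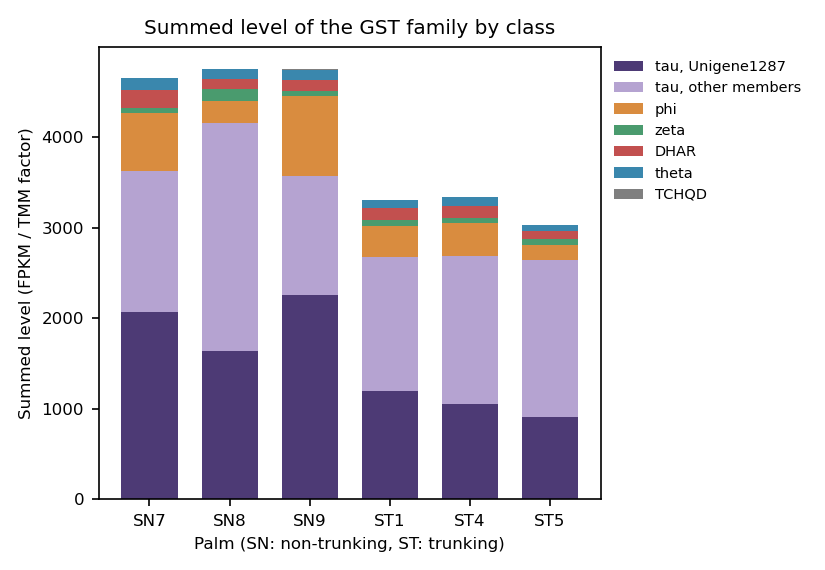
Summed level (FPKM divided by TMM factor) of the 44 GST Unigenes in each palm, stacked by class, with Unigene1287 shown apart from the other tau members. The 3 non-trunking palms reach between 4654 and 4758 and the 3 trunking palms between 3032 and 3336, and tau holds between 75.2% and 87.4% of every bar.

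Tau carried most of this level. It held between 75.2% and 87.4% of the family sum in the 6 palms, phi between 5.00% and 18.7%, DHAR between 2.36% and 4.30%, theta between 2.31% and 2.79%, and zeta between 0.991% and 2.74%. A single tau member, Unigene1287, held between 30% and 47.4%, and the 5 most abundant members together between 63% and 74.8%. Without Unigene1287, an alternative added after the values were seen, the family sum was 2584, 3123 and 2498 in non-trunking palms against 2106, 2280 and 2122 in trunking palms, still without overlap. The tau sum without it was 1552, 2525 and 1320 against 1481, 1631 and 1736, and there the groups overlapped. The separation of the groups in summed tau level was thus lost without 1 Unigene.

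The comparison of the phenotypes was tested per Unigene on expected counts with edgeR's quasi-likelihood test, two-sided, with Benjamini-Hochberg adjustment over the 45928 Unigenes that passed the filter on low counts. The log2 fold change is non-trunking over trunking. Of the 44 members, 40 were tested. The 4 below the filter were CL6784.Contig1 and Unigene8035 of tau and CL4050.Contig1 and CL4050.Contig2 of phi, with group means of at most 2.72. At the 0.05 level 0 members passed after adjustment, as did 0% of all Unigenes tested, and the smallest adjusted p among the members was 0.194. Before adjustment 7 of 40 members (17.5%) lay under 0.05, against 9.85% of all Unigenes tested. Of the 7, 6 were higher in non-trunking palms (background 5.43%) and 1 was lower (background 4.43%).

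Other tests on the same data called more or none, and the tests differ in sensitivity and in false calls, as the processing section states. DESeq2 gave 5 of 43 members an adjusted p under 0.05 (background 2.22%), the likelihood ratio test of edgeR 3 of 40 (background 1.68%), and limma on log2(FPKM + 1) 0 of 41 (background 0.00904%). All 5 and all 3 were among the 7. The groups did not overlap in 10 of the 40 members (25%, background 17.3%), with non-trunking above in 8 (background 8.71%) and below in 2 (background 8.55%).

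The direction was more uniform than the calls. The log2 fold change was above 0 in 36 of 40 members (90.0%), against 51.4% of all Unigenes tested, and the median was 0.38 against 0.02. With library size alone as the scaling, 35 of 40 were above 0, with a median of 0.30 against -0.03 over all Unigenes. Members of 1 cluster share reads, so these are not 40 independent values, and no test was made of the list. Lists of other leaf genes leaned the same way. The photosynthetic markers had a log2 fold change above 0 in 35 of 41 tested, with a median of 0.41, and those of senescing leaf in 5 of 7, with a median of 1.38. For xylem it was 7 of 10 with a median of 0.33, and for epidermis 15 of 24 with a median of 0.31. The mean summed level of the epidermis list was however lower in non-trunking palms, with a log2 ratio of -0.17 and overlap. The direction of the GSTs is thus not shown to be particular to the family. Among the 42 members listed in every palm, the highest level was found in SN7 for 12, in SN8 for 15, in SN9 for 8, in ST1 for 4, in ST4 for 2 and in ST5 for 1. By class the median log2 fold change was 0.41 in tau (24 tested), 0.39 in phi (8), 0.30 in zeta (3) and 0.30 in DHAR (3), while the single theta and TCHQD members stood at 0.56 and 0.29.

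**Figure D2:**
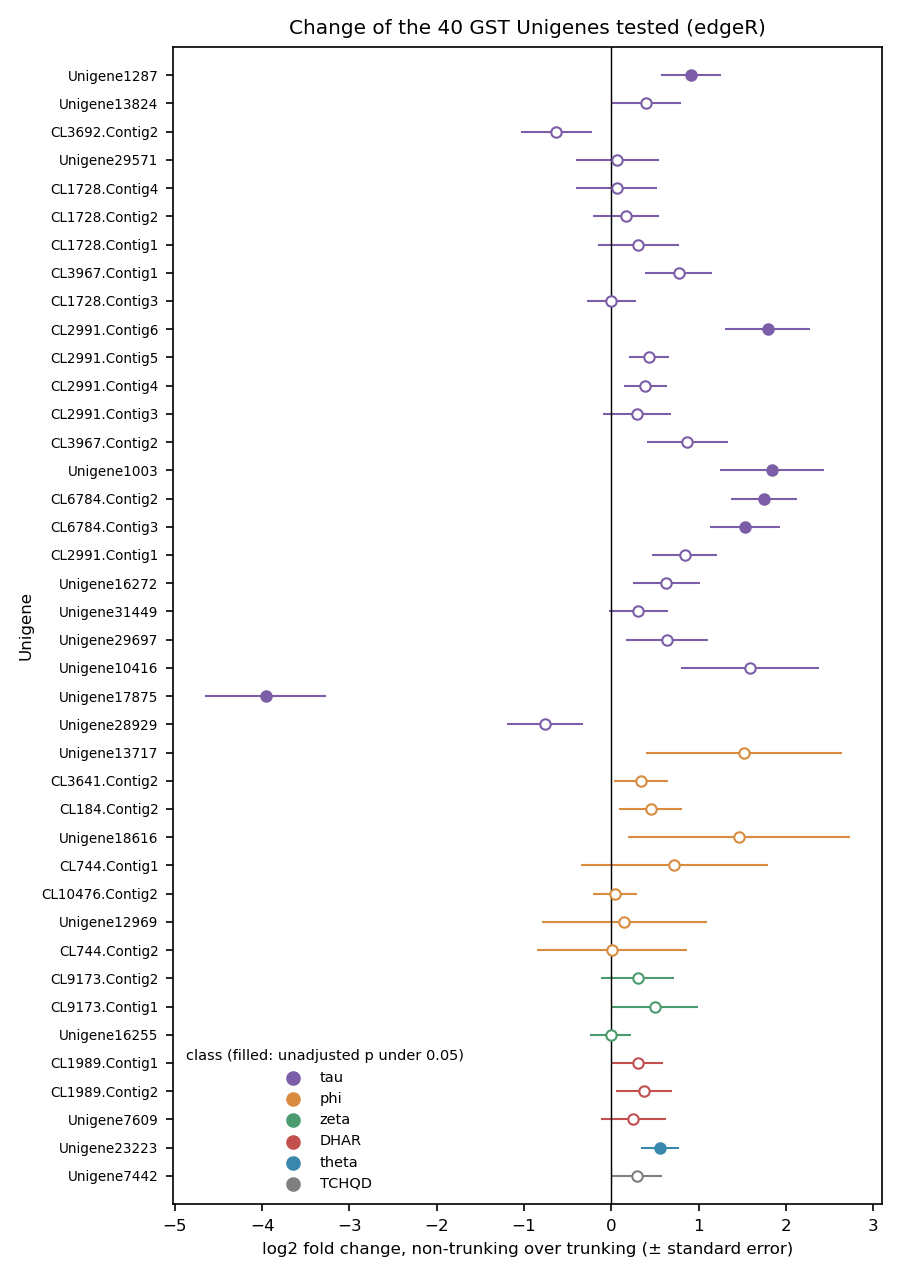
The log2 fold change of each of the 40 GST Unigenes tested, non-trunking over trunking, with its standard error from edgeR as a bar and the class as colour, and with filled points for an unadjusted p under 0.05. Most points lie right of 0, 36 of 40, while Unigene17875 lies far to the left at -3.96 and the widest bars are those of phi members.

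**Figure D3:**
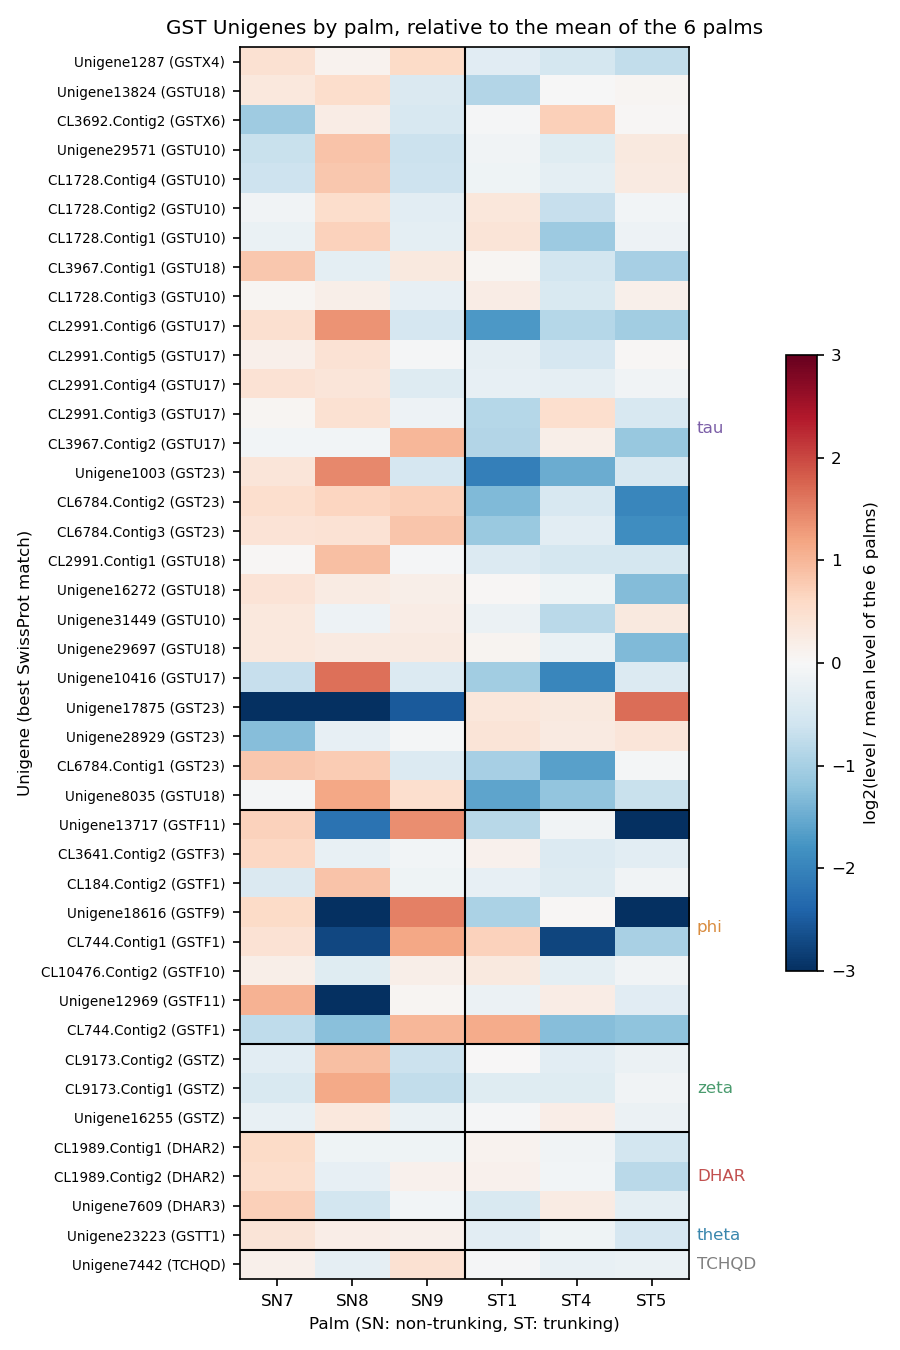
The 42 GST Unigenes listed in every library (rows, by class and falling mean level) in the 3 non-trunking and 3 trunking palms (columns). The colour is log2 of the level over the mean of the 6 palms and is limited to between -3 and 3. Dark cells fall mainly in the phi rows and in Unigene17875, and most U10 rows and the zeta rows are redder in SN8 than in the other palms.

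Within tau, the GST23-type members held the largest changes and went both ways. This group, named for a maize tau GST, had 6 members in 4 clusters or single Unigenes, of which 5 were tested, 3 with an unadjusted p under 0.05 and higher in non-trunking palms (background 5.43%) and 1 lower (background 4.43%). Of the 3, 2 are contigs of CL6784. Its summed level was 44.8, 65.8 and 44.0 in non-trunking palms and 15.3, 22.6 and 21.4 in trunking palms, without overlap.

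CL6784.Contig2, a GST23-type contig, had levels of 13.8, 15.3 and 16.2 in SN7, SN8 and SN9, against 3.91, 7.03 and 2.51 in ST1, ST4 and ST5. Every non-trunking palm lay well above every trunking palm, and the non-trunking palms were close together. The change was 1.75 ± 0.38 on the log2 scale (SE; edgeR adjusted p = 0.249; DESeq2 adjusted p = 0.00750). CL6784.Contig3 of the same cluster stood at 12.3, 12.4 and 16.5 against 4.27, 7.36 and 2.55, also without overlap, with a log2 fold change of 1.53 ± 0.40 (SE; edgeR adjusted p = 0.317; DESeq2 adjusted p = 0.0377). The 2 contigs share reads and count as 1 observation. The third contig, CL6784.Contig1, had means of 0.895 ± 0.361 and 0.381 ± 0.210 (SD, n = 3 each) and was too low to be tested.

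Unigene1003 is another GST23-type member. Its levels were 16.9, 35.7 and 9.29 in SN7, SN8 and SN9 and 3.19, 4.68 and 9.42 in ST1, ST4 and ST5. SN9 lay just below ST5, so the groups overlapped. It had the largest positive change of the 40 members tested, a log2 fold change of 1.84 ± 0.60 (SE; edgeR adjusted p = 0.411; DESeq2 adjusted p = 0.0977). The unadjusted edgeR p, under 0.05 with all palms, was 0.0682 without SN8, 0.0601 without ST1 and 0.0619 without ST4.

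Unigene17875, also of GST23 type, went the other way. It had 1, 2 and 4 expected counts in SN7, SN8 and SN9, against 25, 27 and 64 in ST1, ST4 and ST5, and levels of 0.0850, 0.139 and 0.248 against 1.82, 1.74 and 4.53. Every non-trunking palm was near the lower limit of detection, and every trunking palm lay above them. Of the members tested it had the largest log2 fold change in size, -3.96 ± 0.69, and the smallest p (SE; edgeR adjusted p = 0.194; DESeq2 adjusted p = 0.00206). Because 7 counts stood against 116, the ratio of summed counts per scaled library was 0.0629 with a 95% exact binomial interval between 0.0247 and 0.134, which covers counting error only. Unigene28929, the remaining GST23-type member, had means of 1.01 ± 0.396 and 1.72 ± 0.0736 (SD, n = 3 each) without overlap, and its log2 fold change was -0.76 ± 0.43 (SE; edgeR adjusted p = 0.620).

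**Figure D4:**
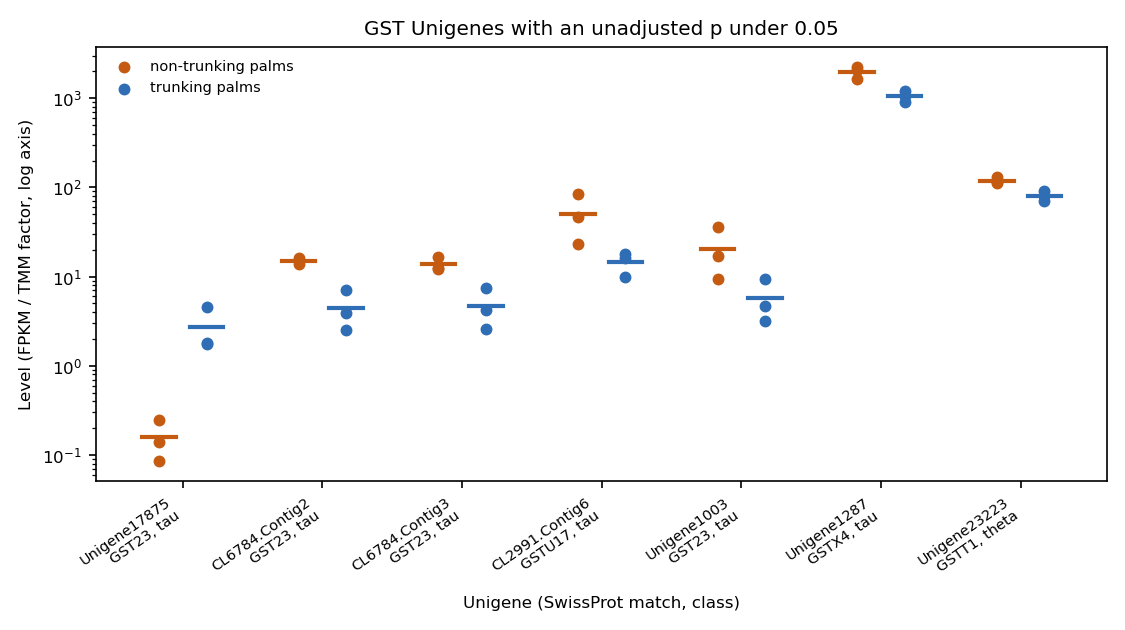
Level (FPKM divided by TMM factor, log axis) of the 7 GST Unigenes that edgeR gave an unadjusted p under 0.05, with 1 point per palm, the non-trunking palms left of the trunking palms, and bars at the group means. The groups do not overlap in any of the 7 but Unigene1003, and Unigene17875 is the only one lower in non-trunking palms.

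The most abundant member was Unigene1287, of the type of tobacco parA, a gene known for its induction by auxin. Its levels were 2070, 1635 and 2252 in SN7, SN8 and SN9 and 1198, 1056 and 910 in ST1, ST4 and ST5. All 3 non-trunking palms lay above all 3 trunking palms, at means of 1986 ± 317 and 1055 ± 144 (SD, n = 3 each). This gave a log2 fold change of 0.91 ± 0.34 (SE; edgeR adjusted p = 0.455; DESeq2 adjusted p = 0.0348). The unadjusted edgeR p was above 0.05 without SN9, ST1, ST4 or ST5 in turn, at 0.0942, 0.0519, 0.0773 and 0.0843, while the log2 fold change stayed between 0.80 and 1.03. The counts, between 21119 and 58478 per library, make counting error small here, and the spread between palms sets the error.

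CL3692.Contig2, matched to a soybean GST and U8-like in Nr, was the third most abundant tau member and one of the 4 members with a log2 fold change below 0. Its levels were 147, 360 and 220 in SN7, SN8 and SN9 and 300, 505 and 315 in ST1, ST4 and ST5. The groups overlapped through SN8. Its log2 fold change was -0.63 ± 0.41 (SE; edgeR adjusted p = 0.677), and -1.03 without SN8, where the unadjusted p was 0.0419.

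The largest set within tau were the 12 members matched to *Arabidopsis* U17 and U18, which fall in 7 clusters or single Unigenes. *Arabidopsis* GSTU17 is known for its part in light signalling and drought responses. All 11 members tested had a log2 fold change above 0, between 0.29 and 1.79 with a median of 0.64, and 1 of them had an unadjusted p under 0.05, a share near the background of 9.85%. That was CL2991.Contig6, at 46.1, 83.5 and 23.1 in SN7, SN8 and SN9 against 10, 18.1 and 16.0 in ST1, ST4 and ST5. The non-trunking palms differed from one another, but the lowest, SN9, still lay above the highest trunking palm, ST4. Its log2 fold change was 1.79 ± 0.49 (SE; edgeR adjusted p = 0.337; DESeq2 adjusted p = 0.0347). The other tested contigs of its cluster, CL2991.Contig1, CL2991.Contig3, CL2991.Contig4 and CL2991.Contig5, had log2 fold changes of 0.84, 0.29, 0.39 and 0.43 with unadjusted edgeR p between 0.0595 and 0.478, so the contigs of 1 cluster differed in size of change. With counts summed per cluster, CL2991 had a log2 fold change of 0.66 and an unadjusted edgeR p of 0.0508.

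Unigene13824, the most abundant of the U17 and U18 types, showed no such separation. Its levels were 537, 618 and 322 in SN7, SN8 and SN9 and 235, 429 and 451 in ST1, ST4 and ST5. SN9 lay below ST4 and ST5. A log2 fold change of 0.40 ± 0.40 was found (SE; edgeR adjusted p = 0.788). Summed over the 12 members the level was 793, 884 and 522 in non-trunking palms and 377, 580 and 577 in trunking palms, which overlapped through SN9.

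The 6 members matched to *Arabidopsis* U10 followed single palms more than the phenotype. Their log2 fold changes were between 0.00 and 0.31, and none had an unadjusted p under 0.05. Their summed level was 568, 1216 and 534 in SN7, SN8 and SN9 and 788, 523 and 823 in ST1, ST4 and ST5. SN8 stood above all other palms, while SN7 and SN9 were near ST4. Unigene29571, the most abundant of them, was at 148, 422 and 151 against 218, 181 and 287. The 4 contigs of CL1728 take part in this sum, among them the contig with the beta-galactosidase name.

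Phi members varied most between palms of one phenotype. The median within-group SD of log2 level was 1.14 over the 8 phi members tested, against 0.506 over the 40 GSTs and 0.412 over all Unigenes tested. All 8 had a log2 fold change above 0, between 0.01 and 1.52, and none had an unadjusted p under 0.05. The summed phi level was 642, 238 and 887 in SN7, SN8 and SN9 and 342, 363 and 159 in ST1, ST4 and ST5. SN8 lay below ST1 and ST4, so the groups overlapped.

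Most of the variation in the summed phi level came from Unigene13717, matched to *Arabidopsis* F11 in SwissProt and to F12 of oil palm in Nr. *Arabidopsis* F12, also called TRANSPARENT TESTA 19, is known for its need in the accumulation of anthocyanins in the vacuole. Its levels were 371, 49.8 and 607 in SN7, SN8 and SN9 and 130, 213 and 13.4 in ST1, ST4 and ST5. SN9 was highest and ST5 lowest, 45.2-fold apart, and each phenotype had 1 palm far below its other two. The log2 fold change of 1.52 ± 1.12 (SE; edgeR adjusted p = 0.711) was within this spread, and it was 0.79 without SN9 and 2.25 without ST4. Without Unigene13717 the phi sum was 270.3, 187.9 and 279.8 against 212.2, 149.9 and 145.3, and still overlapped through SN8.

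Unigene18616, a short fragment of 263 nt matched to phi F9, had the same order of palms. Its levels were 37.6, 2.24 and 71.1 in SN7, SN8 and SN9 and 12.9, 25.7 and 1.11 in ST1, ST4 and ST5. Pearson's r of its log2 level with that of Unigene13717 was 0.983 over the 6 palms, a description of 6 points that share their libraries. Unigenes of anthocyanin synthesis were then looked up, a list added after these values were seen. CL6022.Contig2, a leucoanthocyanidin dioxygenase, which makes the coloured anthocyanidins, was at 235, 32.7 and 308 in non-trunking palms and 77.7, 125 and 11.8 in trunking palms, and r with Unigene13717 was 0.998. Unigene19450, a chalcone synthase, which catalyses the first step of flavonoid synthesis, was at 120, 21.9 and 192 against 47.5, 65.3 and 5.96, with an r of 0.998.

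In these 4 Unigenes the palms stood in 1 order, SN9, SN7, ST4, ST1, SN8 and ST5 from high to low. CL3983.Contig3, a dihydroflavonol reductase of the same pathway, differed from it by the exchange of ST1 and SN8 (r = 0.935). Unigene13691, another dihydroflavonol reductase, was lowest in SN8 and not in ST5, at 31.2, 10.6 and 42.2 in non-trunking and 16.7, 21.6 and 12.4 in trunking palms (r = 0.896). The 3 enzymes plotted were picked from the list for this likeness, so the r values carry no test. Of the 28 anthocyanin Unigenes tested, 5 were higher in non-trunking palms at an unadjusted p under 0.05 (17.9%, background 5.43%) and 0 lower (background 4.43%), with a median log2 fold change of 1.47. After adjustment 0 of them passed in edgeR and 2 in DESeq2. CL4050.Contig1, a short phi contig matched to F12 itself, was below the filter, at 3.54, 1.31 and 3.29 in SN7, SN8 and SN9 and 0.577, 0.884 and 0.00 in ST1, ST4 and ST5. DESeq2, which was run without that filter but leaves out the lowest counts at the adjustment, gave it a log2 fold change of 2.52 (DESeq2 adjusted p = 0.389).

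**Figure D5:**
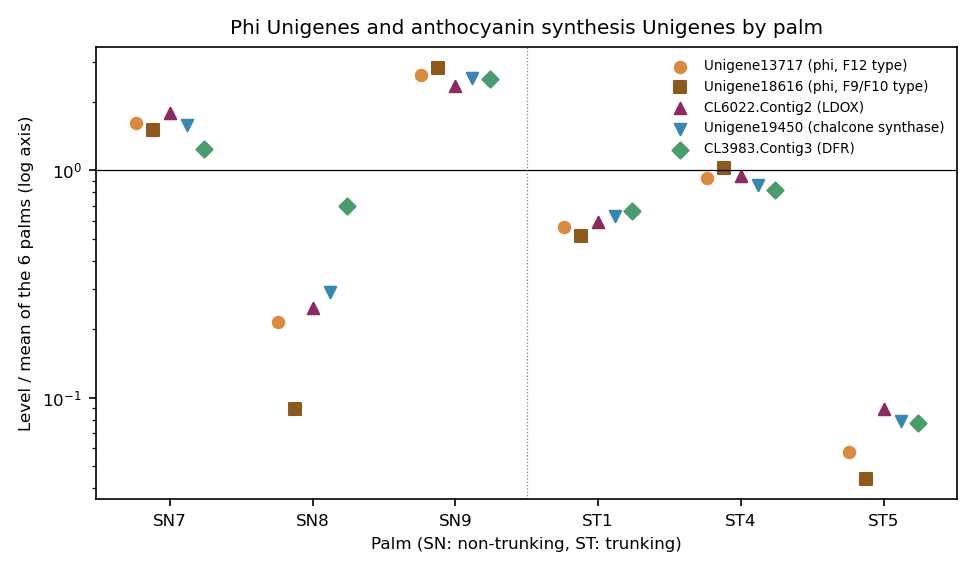
Level relative to the mean of the 6 palms (log axis) of the phi GSTs Unigene13717 and Unigene18616 and of 3 Unigenes of anthocyanin synthesis (LDOX, leucoanthocyanidin dioxygenase; DFR, dihydroflavonol reductase), non-trunking palms left of the dotted line and trunking palms right of it. All 5 are highest in SN9 and lowest in ST5. SN7 also lies above the mean, SN8 and ST1 lie below it as ST5 does, and ST4 lies near or below it. SN8 thus falls among the trunking palms, and the pattern does not divide the palms by phenotype.

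The other phi members showed smaller differences. CL3641.Contig2, matched to maize GST 3, which is known for herbicide conjugation, was at 145, 80.7 and 88.8 in non-trunking and 102, 71.2 and 75.6 in trunking palms, and its log2 fold change was 0.34 ± 0.31 (SE; edgeR adjusted p = 0.774). CL184.Contig2, matched to rice GSTF1, was at 38.8, 96.0 and 48.1 against 44.3, 40.5 and 49.0, with a log2 fold change of 0.45 ± 0.36 (SE; edgeR adjusted p = 0.736) that became -0.04 without SN8. Both overlapped. CL744.Contig1, another rice GSTF1 type, was at 33.5, 3.72 and 55.7 against 40, 3.66 and 12.7, with SN8 and ST4 alike at the low end.

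Within zeta, whose enzyme isomerises maleylacetoacetate in tyrosine breakdown, the contigs of CL9173 were set apart by SN8 alone. CL9173.Contig2 was at 32.2, 75.4 and 25.6 in SN7, SN8 and SN9 and 40.2, 32.2 and 35.6 in ST1, ST4 and ST5, and CL9173.Contig1 at 13.4, 39.9 and 10.9 against 14.2, 14.3 and 16.9. In both contigs SN8 exceeded every palm and SN9 was lowest. Their log2 fold changes of 0.30 ± 0.42 and 0.50 ± 0.49 (SE) became -0.32 and -0.32 without SN8. Unigene16255, the other zeta member, was at 12 ± 2.66 and 12.1 ± 1.55 (SD, n = 3 each). SN8 was highest there too, at 15.1, but close to ST4 at 13.8. Around zeta, the tyrosine pathway gave 3 Unigenes, of which 2 were tested and 0 had an unadjusted edgeR p under 0.05, with 0 also in DESeq2 and in the likelihood ratio test. Unigene13550, a 4-hydroxyphenylpyruvate dioxygenase of this pathway, was at 30.6, 11 and 11.3 against 11.8, 8.33 and 19.7 and overlapped.

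DHAR members differed little. CL1989.Contig1, a DHAR2 type, was at 96.0, 59.7 and 58.8 in non-trunking and 69.5, 60.4 and 44.2 in trunking palms, a log2 fold change of 0.30 ± 0.29 (SE; edgeR adjusted p = 0.788). CL1989.Contig2 of the same cluster was at 54.9, 32.0 and 41.2 against 41.7, 35.8 and 21.6, a log2 fold change of 0.37 ± 0.32 (SE; edgeR adjusted p = 0.760). SN7 was highest in both, and the groups overlapped. Unigene7609, of the chloroplast DHAR3 type, was at 32.9 ± 14.9 and 27.5 ± 7.29 (SD, n = 3 each). Without SN7 the first log2 fold change was 0.03 and the second 0.15.

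The theta member showed a small and even difference. Unigene23223, matched to *Arabidopsis* GSTT1, was at 130, 114 and 111 in SN7, SN8 and SN9 and 79.4, 90.2 and 70.0 in ST1, ST4 and ST5. The groups did not overlap, and its within-group SD, on the log2 scale used for phi, was 0.158, the lowest among the 40 members tested. Its log2 fold change was 0.56 ± 0.22 (SE; edgeR adjusted p = 0.464; DESeq2 adjusted p = 0.288). The unadjusted p stayed under 0.05 in 1 of the 6 fits that leave out a palm, that without ST4 (0.0384), and in the others it was between 0.0637 and 0.115. Unigene7442, the TCHQD member, was at 4.31, 3.21 and 5.29 against 3.77, 3.30 and 3.39 and overlapped, with a log2 fold change of 0.29 ± 0.29 (SE).

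Of the 7 members, the unadjusted p stayed under 0.05 in all 6 such fits for Unigene17875, CL6784.Contig2, CL6784.Contig3 and CL2991.Contig6. The count of members with an unadjusted p under 0.05 was between 5 and 8 over those fits, of 41 or 43 tested, with 0 members past an adjusted p of 0.05 in each. The share of all Unigenes under 0.05 was not taken in those fits, so this count has no background beside it.

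The lambda-type IN2-1 homologs, a list added after the values were seen, gave 6 Unigenes with palm matches, 5 of them in the cluster CL6030. Their summed level was 613, 473 and 405 in non-trunking palms and 266, 303 and 234 in trunking palms, without overlap. CL6030.Contig16 was at 230, 155 and 110 against 46.5, 69.0 and 38.3, with a log2 fold change of 1.68 ± 0.37 (SE; edgeR adjusted p = 0.253; DESeq2 adjusted p = 0.00456). CL6030.Contig13 of the same cluster was at 135, 96.6 and 75 against 43.6, 54.5 and 32.6, with a log2 fold change of 1.23 (edgeR adjusted p = 0.326). Both lay higher in every non-trunking palm, and they share reads. Of the 5 tested, these 2 contigs of 1 cluster had an unadjusted p under 0.05 (background 5.43% higher), and the remaining contigs of the cluster had log2 fold changes of -0.51 and 0.02.

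Other genes of glutathione metabolism were taken by their SwissProt names, with the same condition on Nr. By the quasi-likelihood test of edgeR 0 of them passed 0.05 after adjustment. The counts that follow are those under 0.05 before adjustment, against a background of 5.43% higher and 4.43% lower. For synthesis 2 of 5 were higher and 0 lower, both contigs of glutamate-cysteine ligase, the first and limiting enzyme, with CL2922.Contig2 at 20.3, 26.0 and 21.8 in non-trunking and 14.5, 15.5 and 16.1 in trunking palms (log2 fold change 0.56 ± 0.19, SE; edgeR adjusted p = 0.420). The groups did not overlap, although the unadjusted p was 0.0718 without ST1. The other contig, CL2922.Contig1, is of the same cluster and shares reads with it. For reduction of glutathione and the ascorbate cycle 4 of 39 were higher and 0 lower, all of them ascorbate peroxidases, which use ascorbate to remove hydrogen peroxide. Among these, CL731.Contig5 and CL731.Contig7 belong to the same cluster and share reads.

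Unigene26343, a cytosolic ascorbate peroxidase, was at 95.3, 63.4 and 67.8 in non-trunking and 37.3, 29.7 and 29.5 in trunking palms. The groups stood far apart, with a log2 fold change of 1.23 ± 0.25 (SE; edgeR adjusted p = 0.224; DESeq2 adjusted p = 0.00552). Glutathione reductase, which restores the reduced form, summed to between 95 and 101 against between 94.4 and 107 over 10 Unigenes. For peroxide removal by glutathione peroxidases and peroxiredoxins 0 of 18 passed, with 1 in DESeq2 (background 6.52%) and 0 in the likelihood ratio test (background 9.61%), and for glyoxalases, which remove methylglyoxal with glutathione, 2 of 14 were higher and 0 lower. The smallest p of the peroxide list was that of CL8209.Contig1, a glutathione peroxidase, at 40.2, 37.5 and 39.3 in non-trunking and 32.2, 32.6 and 25.7 in trunking palms (log2 fold change 0.37 ± 0.19, SE; edgeR adjusted p = 0.578).

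Among the glyoxalases the smallest p belonged to Unigene20017, a glyoxalase II of chloroplast type, at 119, 63.6 and 64.0 in non-trunking and 47.2, 39.3 and 19.4 in trunking palms. SN7 stood above the rest and the groups did not overlap, with a log2 fold change of 1.22 ± 0.42 (SE; edgeR adjusted p = 0.431) and an unadjusted p of 0.0768 without SN7. Glutaredoxins, small oxidoreductases that draw on glutathione, had 1 of 29 higher and 2 lower. Of these Unigene3995, a monothiol glutaredoxin, was at 4.43, 1.57 and 1.45 against 9.53, 3.57 and 13.7. SN7 lay above ST4, so the groups overlapped, and its log2 fold change was -1.85 ± 0.66 (SE; edgeR adjusted p = 0.441).

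For conjugate transport by ABC transporters of the C family 6 of 34 were higher and 0 lower, with a median log2 fold change of 0.14. The 3 contigs of CL348, matched to *Arabidopsis* ABCC10, were among them, with log2 fold changes between 1.52 and 1.76. These contigs belong to the same cluster and share reads. CL9156.Contig1 and CL9156.Contig2, also among the 6, are likewise of the same cluster and share reads. The 6 are thus not independent observations. CL348.Contig1 was at 31.3, 37.8 and 29.7 in non-trunking and 9.89, 11.1 and 11.5 in trunking palms. The groups were wide apart beside their small spread, with a log2 fold change of 1.60 ± 0.21 (SE; edgeR adjusted p = 0.183; DESeq2 adjusted p = 4.85e-08). The SwissProt name does not say what this transporter carries.

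For breakdown of conjugates and glutathione 4 of 19 were higher and 5 lower, with a median of -0.13. The words of this list also reach glyoxalase II, and without it, an alternative added after the values were seen, 3 of 17 were higher and 5 lower. The 5 lower Unigenes were the 5 contigs of CL5099, matched to *Arabidopsis* glutathione hydrolase 3, of the gamma-glutamyl transpeptidase family that cleaves the glutamate from glutathione and its conjugates. Their summed level was 23.5, 28.8 and 24.2 in non-trunking and 58.4, 87.7 and 102 in trunking palms. CL5099.Contig4 was at 3.3, 5.5 and 4 against 15.2, 29.1 and 34.8, without overlap, with a log2 fold change of -2.63 ± 0.38 (SE; edgeR adjusted p = 0.185; DESeq2 adjusted p = 4.36e-07). The contigs share reads and stand for 1 cluster. The markers of photosynthetic cells, senescing leaf and xylem moved the same way as the GST sum, with log2 ratios of summed level of 0.43, 1.32 and 0.60. Those of epidermis went the other way, at -0.17. Only the xylem sums did not overlap between the groups. The part of these cell types in any of these differences was not tested.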

How the data were processed

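The authors sequenced leaf RNA of 6 palms (BGISEQ-500), and the reads were assembled with Trinity, clustered with TGICL, mapped back with Bowtie2 and quantified with RSEM. For these tools, versions and settings were not given in the sources used here. The authors deposited, per library and Unigene, the expected count (an estimated count of fragments, not normalized, which need not be whole) and the FPKM, scaled by length and library total. The length of each Unigene and its database matches are in the same deposited tables. A Unigene is listed from an FPKM of 0.01, and one not listed was taken as 0.

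Joining and summaries used pandas 2.3.3 under Python 3.11.15 with NumPy 2.4.6. Rounded expected counts were tested with edgeR 4.0.16 in R 4.3.3 (filterByExpr, TMM, glmQLFit, glmQLFTest, threshold 0.05), and for comparison with its likelihood ratio test, DESeq2 1.42.0 and limma 3.58.1 (trend, on log2(FPKM + 1), filtered at an FPKM of 1 in 3 libraries). The standard error is the log2 fold change over the square root of the F statistic. The code was tested on simulated data. At the dispersions estimated from these palms the quasi-likelihood test there recovered none of the changes put in. DESeq2 and the likelihood ratio test recovered many of them, and both of these made many false calls. The smallest p of an exact permutation test between 3 and 3 palms is 0.1. The p-values given set the difference between the groups against the spread between these palms. Each test's estimate of that spread also draws on the other Unigenes. The biological coefficient of variation was 0.497. Figures were drawn with Matplotlib 3.10.9.

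The members and lists were chosen with earlier results of these data known. The rule named every member with an unadjusted p under 0.05, the 3 most abundant in tau and phi and the 2 most abundant in each other class, the largest change in each direction, and the smallest p of each list. Others are given as contigs of the same cluster or as remaining members of a class, and were chosen after their values were seen. The alternatives concerned scaling, the filter, the test, the pseudocount, sums per cluster, the choice of members and each library left out. The lists of IN2-1 homologs and anthocyanin synthesis, the breakdown list without glyoxalase II and the sums without the most abundant member were added after the values were seen.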

Additional observations from a re-analysis of the deposited data

How the results depend on the processing

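The count of members that passed 0.05 after adjustment, 0 by the quasi-likelihood test of edgeR, was 5 with DESeq2 and 3 with the likelihood ratio test, and 0 without each palm in turn. The median log2 fold change of the members, 0.38, was 0.30 with library size alone, 0.29 with limma on log2(FPKM + 1), 0.30 with limma on log2(FPKM + 0.1), and between 0.43 and 0.52 without each palm. The limma fits tested 41 members and the fits without a palm 41 or 43, against 40 in the main fit. Medians of those fits are thus not over the same set of members. Leaving out a palm gave class medians between 0.36 and 0.72 in tau, between 0.28 and 1.24 (without ST1) in phi, between -0.32 (without SN8) and 0.57 in zeta, and between 0.03 (without SN7) and 0.50 in DHAR. Summing counts per cluster gave CL2991 a log2 fold change of 0.66, against 1.79 for CL2991.Contig6 alone. By the likelihood ratio test the count at an unadjusted p under 0.05 was 0 for glutathione synthesis and 1 for glyoxalases, and by DESeq2 it was 1 for peroxide removal. Without each palm these counts ranged from 0 to 2 for synthesis, 1 to 6 for reduction and the ascorbate cycle, 0 to 2 for peroxide removal, 0 to 2 for glyoxalases, 3 to 7 for transport, 5 to 8 for breakdown and 0 to 3 for glutaredoxins. The lowest came without ST1 for reduction (1), ST4 for transport (3) and SN7 for breakdown (5). For the fits without a palm the share of all Unigenes under 0.05 was not taken, so these counts have no background. No called value changed direction, and the cause of these movements was not tested.

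No paired analysis was possible because the replicate numbers of the phenotypes are not shared. The limits are the number of palms, the place that goes with the phenotype, contigs that share reads, and low counts in Unigene17875, CL4050.Contig1 and CL4050.Contig2, where small differences were not detectable at this depth.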

Other observations

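SwissProt named a glutathione S-transferase in 30 further Unigenes whose best Nr match was in another species or in none. Of these, 22 had their best Nr match in an alga. Their summed level was 0.267, 51.4 and 3.45 in SN7, SN8 and SN9 and 61.4, 35.7 and 48.9 in ST1, ST4 and ST5, and the number of them listed was 2, 13 and 3 against 15, 14 and 16. Few of them were listed in SN7 and SN9, while SN8 listed nearly as many as the trunking palms. Unigenes with a best match outside land plants took 0.503%, 0.611% and 0.360% of the counts in non-trunking and 0.658%, 0.517% and 0.604% in trunking palms.

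Unigene29596, matched to *Arabidopsis* GSTU25 but to a jute protein in Nr, falls outside the rule and was chosen after its values were seen. It was at 210, 318 and 167 in non-trunking and 66.0, 118 and 108 in trunking palms, without overlap. Its log2 fold change was 1.25 ± 0.36 (SE; edgeR adjusted p = 0.359; DESeq2 adjusted p = 0.0522).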
